A study of Mus musculus with 8 samples.

Results

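Regions of H3K27-me3 that were found in the AAV-Cre list, overlapped no region of the AAV-GFP list and had the start site of a protein-coding gene at a distance of 1 kb or less were described in fasted mouse liver. A region was counted as AAV-Cre-only when it shared no base with an AAV-GFP region. Of the 93853 regions in both lists, 59267 were from AAV-Cre and 34586 from AAV-GFP. On chromosomes 1 to 19, 44724 of 58951 AAV-Cre regions (75.9%) were AAV-Cre-only, and 2393 of these (5.35%) lay within 1 kb of a start site. At start sites, 6308 AAV-Cre regions were found, of which 2393 (37.9%) were AAV-Cre-only and 3915 were shared with AAV-GFP. These regions were chosen by the measured peak calls themselves, present in AAV-Cre and absent from AAV-GFP, so this difference is a description and was not tested.

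The libraries were made from male C57BL/6 mice with floxed alleles of JMJD3, which both virus groups carried. Virus was given when the mice were 8 weeks old, either AAV-TBG-Cre or the control AAV-GFP, and livers were taken 12 weeks later after a fast of 16 h. The TBG promoter drives Cre in hepatocytes, whereas chromatin came from minced liver, which also holds endothelial, stellate, bile duct and immune cells. Each group had 2 H3K27-me3 and 2 input libraries, which the authors combined into 1 list, so there is no value per mouse and the variation between animals is unknown. Peak lists do not show whether the floxed alleles were deleted. In bulk tissue, a mark in more cells and a stronger mark per cell cannot be told apart. The lists also differed in how finely they were called: the shortest region was 300 bp in AAV-Cre and 120 bp in AAV-GFP, and a q-value of 0.05 or lower in the own list was reached by 88.6% of AAV-Cre and 46.8% of AAV-GFP regions. The part of this difference in the AAV-Cre-only calls was not tested.

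H3K27-me3 is written by Polycomb repressive complex 2, whose catalytic subunits are EZH1 and EZH2, and it is a mark of silent genes. It is removed by the demethylases UTX and JMJD3, the latter encoded by Kdm6b. In mammals the mark is densest over CpG islands, stretches of DNA that keep a high density of CpG dinucleotides, at the start sites of developmental regulators that a tissue does not use. Genes that a tissue transcribes strongly usually lack it.

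CpG-rich start sites are shown by the 200 bases upstream of 5 of them, which were among the AAV-Cre-only regions with the highest −log10 p that covered a start site and had no annotated exon in this stretch. The sequences are those of the reference genome (GRCm38, which mm10 names), written 5′ to 3′ in the direction of transcription, and capitals mark each CpG.
Olfml2b, chr1:170644332-170644531 (plus strand): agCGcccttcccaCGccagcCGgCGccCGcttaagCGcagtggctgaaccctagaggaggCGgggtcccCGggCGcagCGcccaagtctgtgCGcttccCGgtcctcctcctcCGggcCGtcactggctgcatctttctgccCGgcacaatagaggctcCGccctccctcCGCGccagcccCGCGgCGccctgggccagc
Cdc20, chr4:118437353-118437552 (minus strand): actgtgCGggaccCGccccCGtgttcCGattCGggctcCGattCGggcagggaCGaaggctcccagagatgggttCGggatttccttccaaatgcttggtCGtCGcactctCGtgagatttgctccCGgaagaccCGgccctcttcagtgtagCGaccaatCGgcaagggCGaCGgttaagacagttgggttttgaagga
Grm8, chr6:28134546-28134745 (minus strand): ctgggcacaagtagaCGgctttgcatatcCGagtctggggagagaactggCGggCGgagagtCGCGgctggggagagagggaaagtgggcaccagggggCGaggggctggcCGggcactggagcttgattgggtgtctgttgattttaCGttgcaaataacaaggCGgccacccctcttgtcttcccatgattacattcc
Rab40b, chr11:121388252-121388451 (minus strand): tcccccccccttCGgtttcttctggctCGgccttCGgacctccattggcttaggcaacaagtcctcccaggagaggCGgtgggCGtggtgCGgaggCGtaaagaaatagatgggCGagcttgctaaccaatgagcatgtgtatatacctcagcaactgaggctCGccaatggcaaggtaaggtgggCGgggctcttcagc
Jazf1, chr6:53068632-53068831 (minus strand): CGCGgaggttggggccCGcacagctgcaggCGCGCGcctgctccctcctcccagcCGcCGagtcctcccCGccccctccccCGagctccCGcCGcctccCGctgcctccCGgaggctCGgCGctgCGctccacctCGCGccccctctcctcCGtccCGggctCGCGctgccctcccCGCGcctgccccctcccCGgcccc
Jazf1, which encodes a zinc-finger protein, had 26 CpG in this stretch, Olfml2b, which encodes a secreted olfactomedin-like protein, had 21, and Cdc20, which encodes an activator of the anaphase-promoting complex, had 18. Grm8, a metabotropic glutamate receptor gene, and Rab40b, which encodes a small GTPase, had 10 each. All 5 start sites were in a CpG island, so they do not show the start sites outside CpG islands, such as that of Slc36a2.

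The AAV-Cre-only regions at start sites were narrower and weaker than the shared ones. Their median width was 797 bp (interquartile range 521 to 1238 bp), against 3170 bp for the shared regions at start sites and 632 bp for the 42331 AAV-Cre-only regions elsewhere on these chromosomes. The fold enrichment over input, as the authors' peak caller gave it, had a median of 2.95 (interquartile range 2.56 to 3.56) and a highest value of 8.04, against medians of 6.44 for shared regions and 2.73 elsewhere. A fold of 4 or more was reached by 341 of them (14.2%) and by 84.8% of the shared regions. The median −log10 p was 5.05, against 25.2 and 4.35. Of the 2393, 2147 (89.7%) had a q-value of 0.05 or lower and 1813 (75.8%) a q-value of 0.01 or lower, while 550 (23.0%) were narrower than 500 bp and 197 (8.23%) were 2 kb or wider.

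**Figure D1:**
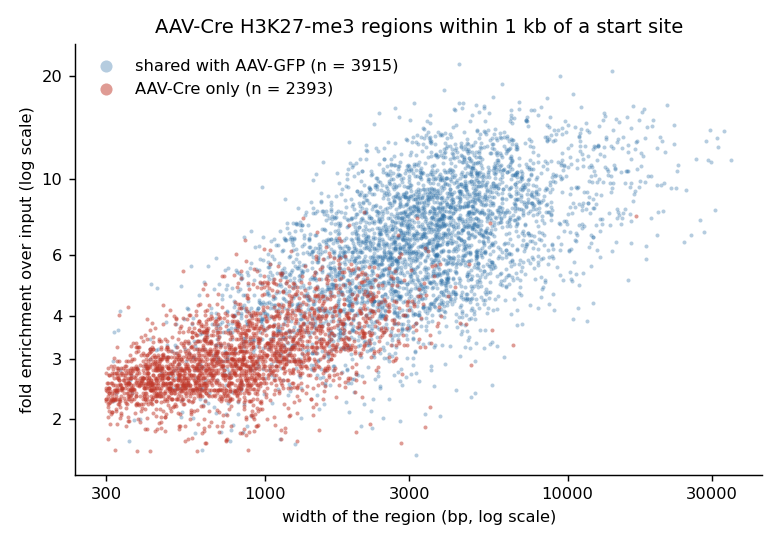
Width (bp, log scale) against fold enrichment over input (log scale) of each AAV-Cre region within 1 kb of a start site, red for the 2393 AAV-Cre-only regions and blue for the 3915 shared regions. The red points lie mostly at the lower left, with a median of 797 bp and a fold of 2.95, and the blue points at the upper right, with a median of 3170 bp and a fold of 6.44.

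The share of start-site regions that were AAV-Cre-only followed their strength within the AAV-Cre list. When the 6308 regions were put into 10 classes by −log10 p, 92.1% of the weakest class, with values from 2.03 to 3.88, were AAV-Cre-only (95% Wilson interval 89.7 to 93.9%). The share was 62.5% in the fourth class, 36.0% in the fifth and 16.7% in the sixth. It was 3.43% in the seventh class and 1.12% in the eighth. In the 2 strongest classes, with a −log10 p of 36.0 or more, 0 of 636 and 0 of 631 were AAV-Cre-only, which allows shares of up to 0.472 and 0.475%. All intervals given here cover counting error only, and neighbouring regions are not independent of each other.

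Among the 2393 regions, 1072 (44.8%, interval 42.8 to 46.8%) covered a start site, against 83.7% of the shared regions. A further 662 (27.7%) lay within 500 bp without covering it and 659 (27.5%) lay between 500 and 1000 bp away. Of those that covered none, 602 lay upstream and 719 downstream of the nearest start site. Seen base by base around the nearest start site, coverage was highest on the transcribed side. At start sites in CpG islands, 42.6% of the 1309 AAV-Cre-only regions covered the start itself, and the highest coverage was 47.7% at 250 bp downstream, while 23.5% covered the position 500 bp upstream. At the 1084 regions whose start site was not in a CpG island, coverage was 47.5% at the start and highest, at 49.4%, 100 bp downstream. The shared regions at CpG islands had their highest coverage, 87.9%, at 350 bp downstream.

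**Figure D2:**
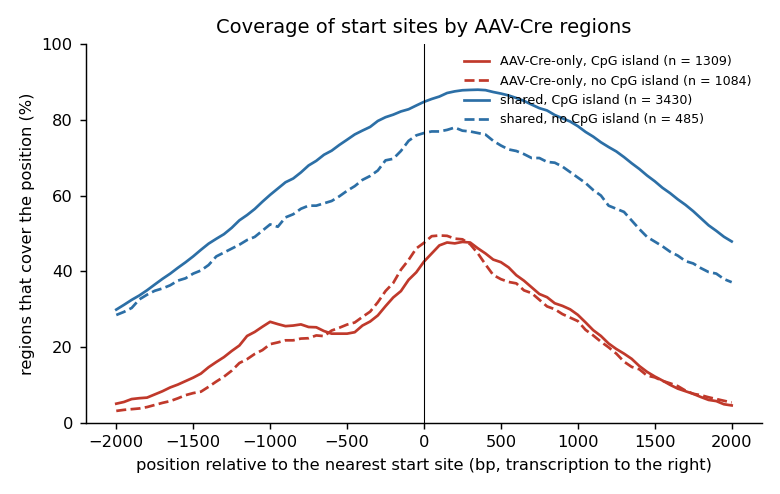
Share of AAV-Cre regions (%) that cover each position relative to the nearest start site (bp, transcription to the right), for AAV-Cre-only regions (red) and shared regions (blue) whose start site was in a CpG island (solid lines) or not (dashed lines). Both red lines stay below 50%, with the highest values at 250 and 100 bp downstream of the start, and both blue lines run above them at every position.

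The distance from an AAV-Cre-only region to the nearest AAV-GFP region had a median of 16444 bp, from edge to edge, with an interquartile range from 2132 to 64967 bp. For AAV-Cre-only regions elsewhere the median was 9486 bp. At most 1 kb separated 393 of the start-site regions (16.4%) from an AAV-GFP region, and at most 5 kb separated 807 (33.7%). Within 15 kb, the window that the study used to assign regions to genes, 1161 (48.5%) had an AAV-GFP region. More than 50 kb separated 708 (29.6%) and more than 500 kb separated 35. Regions of the AAV-Cre list itself were closer, since 1320 of the 2393 (55.2%) had another AAV-Cre region within 1 kb and 1743 (72.8%) within 5 kb.

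CpG content and position differed between distances, whereas the fold hardly did. The median fold was 2.95 in each of 4 distance classes (at most 1 kb, 1 to 5 kb, 5 to 50 kb and over 50 kb). The start site was in a CpG island for 74.3% of the regions at most 1 kb from an AAV-GFP region (interval 69.8 to 78.4%), 41.5% of those at 1 to 5 kb (36.9 to 46.3%), 45.1% at 5 to 50 kb (41.8 to 48.4%) and 63.4% of those over 50 kb away (59.8 to 66.9%). The nearest regions rarely lay on the start site, which 25.7% of them covered, against 52.1% of those over 50 kb away. In the nearest class 96.7% had another AAV-Cre region within 5 kb, and in the most distant class 51.1% did. The CpG density of the region itself was 1.46 per 100 bases in the nearest class and 2.52 in the most distant.

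**Figure D3:**
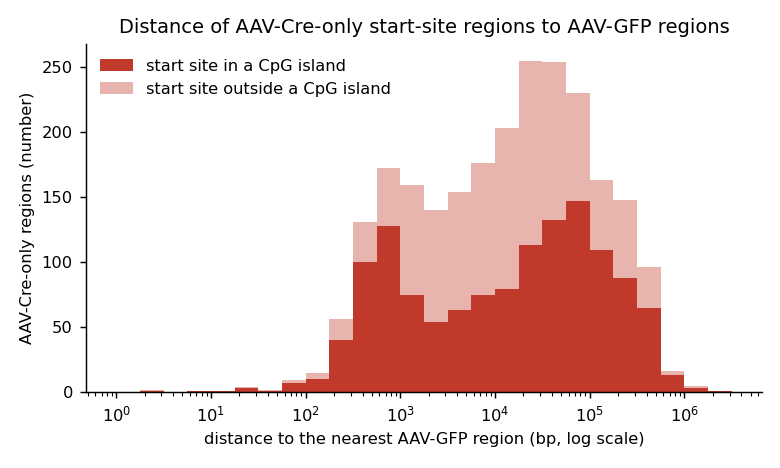
Number of AAV-Cre-only start-site regions by their distance to the nearest AAV-GFP region (bp, log scale), with regions whose start site was in a CpG island in dark red and the others stacked on them in light red. The counts form a smaller hump just below 1 kb, where most start sites are in CpG islands, and a larger hump to the right of the median of 16444 bp.

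CpG content was measured within 500 bp on each side of the start site, and a start site was counted as in a CpG island when a window of 200 bp there had a GC content over 50% and a ratio of observed to expected CpG over 0.6. Of the 3053 start sites within 1 kb of an AAV-Cre-only region, 1818 (59.5%, interval 57.8 to 61.3%) were in a CpG island, against 65.0% of all 39516 start sites. The direction of this difference turned with a q-value of 0.01 or lower in both lists (67.6%), when sharing needed 0.5 of the region to be covered (72.8%) and with a window of 5 kb (69.3%). The share was 87.6% at the 5688 start sites that had only a shared region. Start sites with an AAV-Cre-only region and no shared region were in a CpG island in 55.3% of 2473 cases, and those with both kinds in 77.6% of 580 cases. The 30775 start sites without an AAV-Cre region had a share of 61.4%. The ratio of observed to expected CpG had a median of 0.405 at start sites with an AAV-Cre-only region, 0.573 at all start sites and 0.638 at those with a shared region only. The AAV-Cre-only regions themselves held a median of 1.87 CpG per 100 bases (interquartile range 1.196 to 3.23), between the 3.08 of shared start-site regions and the 1.23 of AAV-Cre-only regions elsewhere.

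Compared with shared regions, the share of CpG islands was also lower at matched strength. With the start-site regions put into 4 classes by −log10 p, the AAV-Cre-only regions had a CpG island at 44.8% of their nearest start sites in the weakest class (268 of 598), 50.2% in the second, 54.6% in the third and 67.2% in the strongest (443 of 659). The shared regions had 80.8% (42 of 52), 69.1% (38 of 55), 73.7% (140 of 190) and 88.7% (3210 of 3618). The intervals of the AAV-Cre-only and shared regions did not overlap in any class, although the strongest class reached a −log10 p of 29.9 for the AAV-Cre-only and 135 for the shared regions, so strength was not equal within it.

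**Figure D4:**
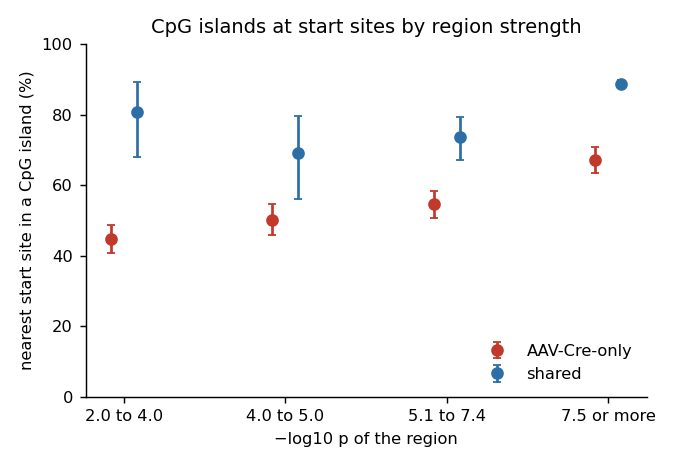
Share of AAV-Cre start-site regions (%) whose nearest start site was in a CpG island, in 4 classes of −log10 p, for AAV-Cre-only (red) and shared (blue) regions, with bars for the 95% Wilson interval. The red points run from 44.8 to 67.2% and lie below the blue points, which range from 69.1 to 88.7%, in each class.

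Short promoter motifs were searched on both strands from 250 bases before to 50 bases after each start site. The GC box GGGCGG was present at 41.8% of start sites with an AAV-Cre-only region and 45.9% of all start sites. Shares were 10.3 and 11.8% for TATAAA, 33.6 and 36.5% for CCAAT, 5.93 and 7.56% for the E-box CACGTG, and 13.9 and 14.1% for AGGTCA, the core of nuclear receptor sites. Outside CpG islands GGGCGG was present at 17.9% of start sites with an AAV-Cre-only region, 22.1% of those with only a shared region and 9.17% of all such start sites. The shares for TATAAA there were 14.4, 13.03 and 22.4%. These are matches of letters and not binding sites.

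The 2393 regions belonged to 2000 genes, or 9.65% of the 20720 autosomal protein-coding genes. A shared region was found at a start site of 3662 genes (17.7%), and 555 of the 2000 genes had one besides their AAV-Cre-only region. Of the 17058 genes without a shared region, 1445 (8.47%) had an AAV-Cre-only region. For 1473 of the 2000 genes (73.7%, interval 71.7 to 75.5%) no AAV-GFP region was found within that window of 1 kb, and for 947 (47.4%, interval 45.2 to 49.5%) none lay within 15 kb. The share of genes with an AAV-Cre-only region ran from 7.46% on chromosome 13 to 13.004% on chromosome 11. Of the 2393 regions, 43 were at start sites of 2 or more genes and 137 were also within 1 kb of the start of a long noncoding RNA.

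Most genes (1620) had a single AAV-Cre-only region, 331 had 2, 42 had 3 and 7 had 4. At Trpm8, a cold-sensing cation channel gene, the 4 regions were 326 to 660 bp wide with folds of 1.93 to 3.38, and 1 of them covered a start site. The 4 regions at Dnmt3l, which encodes a cofactor of DNA methyltransferases in germ cells, lay within 14160 bp, had folds of 2.43 to 5.39 and were at least 11377 bp from an AAV-GFP region. At Sulf1, a heparan sulfate 6-O-endosulfatase gene, they had folds of 1.70 to 2.86 and lay 91280 to 116274 bp from an AAV-GFP region. Kcnip4, which encodes a potassium channel interacting protein, has 5 annotated start sites, and its 4 regions were spread over 637298 bp. Astl, Gimap3 and Myo15b also had 4.

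The strongest regions, by −log10 p, were at genes of unlike function. The region at Olfml2b (chr1:170643110-170645234) was 2125 bp wide with a fold of 8.04 and covered the start site, and the nearest AAV-GFP region lay 252541 bp away. The region at Sox12 (chr2:152396133-152398036), which encodes a SoxC transcription factor, ended 10 bp from the start site within the gene and was the richest in CpG among the 3 strongest, with 10.3 per 100 bases and a fold of 7.34. At Cdc20 (chr4:118436354-118437692) the region was 1339 bp wide with a fold of 7.69, and at Grm8 (chr6:28132248-28135421) it was 3174 bp wide with the same fold and lay 159292 bp from an AAV-GFP region. Both covered the start site.

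The widest region was at Slc36a2 (chr11:55173864-55190718), a gene for a proton-coupled amino acid transporter, whose 16855 bp had a fold of 7.83, held 1.02 CpG per 100 bases and ended 831 bp from an AAV-GFP region of 141 bp. It covered the start site and coding exons of the gene. The next in width were at Qrfp, a neuropeptide gene (6625 bp, fold 3.29), Muc5ac, a gel-forming mucin gene (5630 bp, fold 3.65), Lrrc71 (5544 bp, fold 7.48) and Pmepa1, an inhibitor of TGF-beta signalling (4795 bp, fold 2.87). The region at Qrfp also covered coding exons of Fibcd1, and that at Lrrc71 exons of Pear1, so these regions could not be given to 1 gene.

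Further regions among the 12 strongest were at Rab40b (fold 6.88), Tctex1d1 (7.04), Jazf1 (5.89), Ldhb, the B subunit of lactate dehydrogenase (6.74), and Msrb3, a methionine sulfoxide reductase gene (5.27). The region at 5330417C22Rik (6.65) was also within 1 kb of the start of 1700013F07Rik. Of these 12 strongest regions, the start site was in a CpG island for all except Slc36a2.

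Among regions with a q-value of 0.01 or lower, the most distant from an AAV-GFP region was at Slc1a4, a neutral amino acid transporter gene, at 1298116 bp, with a fold of 4.08. It was followed by Alcam, a cell adhesion gene, at 1105088 bp (fold 3.34), 9130008F23Rik at 1050170 bp (6.00), Spef2, a sperm flagellum gene, at 1036539 bp (3.51), and Atp10a, a phospholipid flippase gene, at 993632 bp (3.35). The AAV-GFP regions nearest to these 5 were 120 to 309 bp wide.

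At the edges of the rule, the members just inside 1 kb were at Cd22 (1000 bp from the start site, fold 2.73), Spire2 (999 bp, 2.82) and Sulf1 (998 bp, 2.86). Just outside were AAV-Cre-only regions near Aqp7 (1001 bp, 2.77), Gosr1 (1001 bp, 2.64) and Zmynd15 (1005 bp, 2.60). The smallest distances to an AAV-GFP region were 2 bp at Lgi1 and Tnfrsf9 and 8 bp at Ajap1, with folds of 3.25, 2.30 and 1.84. The smallest overlaps that made a region shared were 1 bp at Hap1, 2 bp at Ptpn5 and 3 bp at Pxdn, with folds of 2.69, 2.64 and 2.43.

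Gene classes were described by the number of genes with an AAV-Cre-only region, set beside the 9.65% of all genes. Receptors and channels of excitable cells stood above it. Of 97 neurotransmitter receptor genes, 27 (27.8%, interval 19.9 to 37.5%) had such a region, as did 22 of 92 potassium channel genes (23.9%, 16.4 to 33.6%) and 15 of 59 sodium and calcium channel genes (25.4%, 16.1 to 37.8%). Grm8 had the strongest region among the receptors. At Htr5a, a serotonin receptor gene, the region (chr5:27841297-27843234) was 1938 bp wide with a fold of 4.65, covered the start site and lay 271043 bp from an AAV-GFP region. Drd5, a dopamine receptor gene, had a region with a fold of 3.99 over its start site, 40082 bp from an AAV-GFP region. At Htr1d the fold was 4.17, but the region lay 342 bp from the start site and 360 bp from an AAV-GFP region, and the gene had a shared region as well.

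Among channel genes, Kcnip3, which encodes a potassium channel interacting protein, had a fold of 5.21, and Kcnv2, a modifier subunit of potassium channels, a fold of 4.61. Trpm3, a cation channel gene, had a fold of 5.26 with 97947 bp to the next AAV-GFP region. Many genes of these classes carried a shared region, 66 of 92 for potassium channels and 57 of 97 for neurotransmitter receptors. Among the genes that did not, 14 of 26 and 20 of 40 had an AAV-Cre-only region, against 8.47% of all genes without a shared region.

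**Figure D5:**
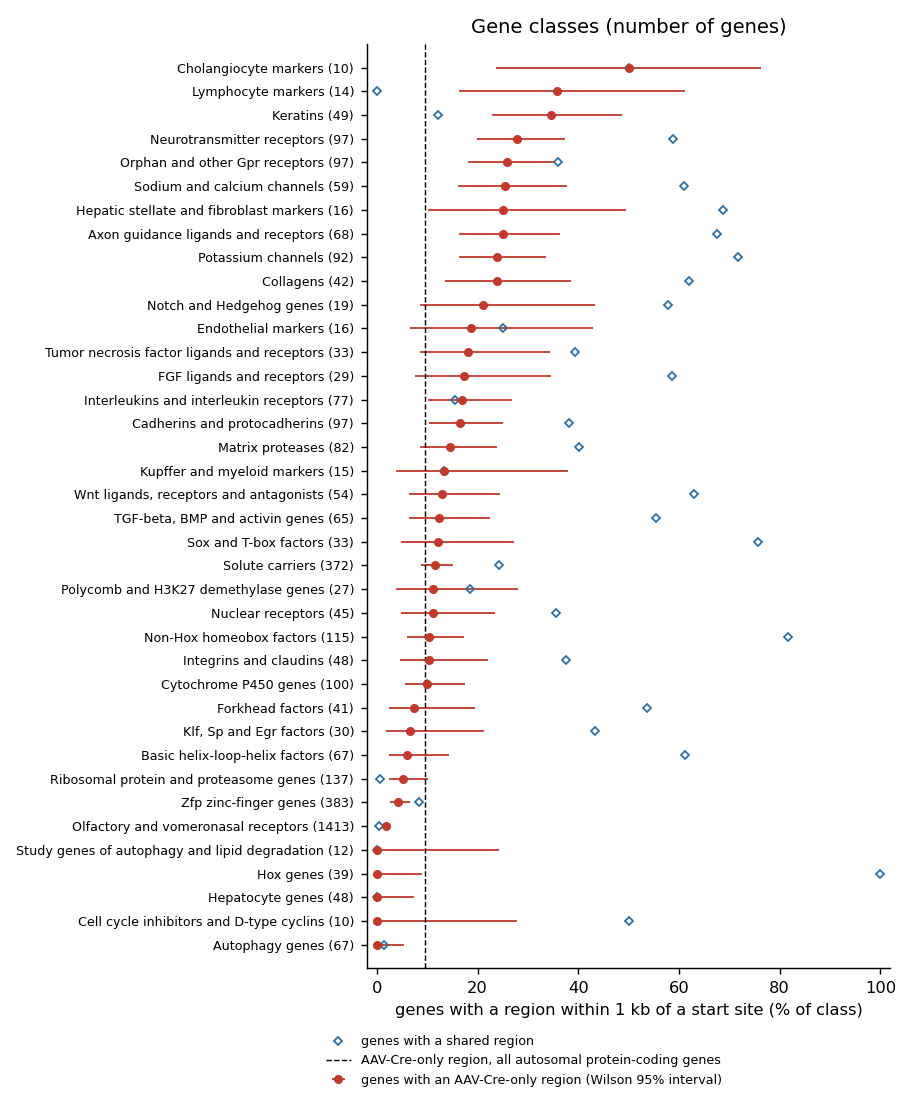
Share of the genes of each class (%, number of genes in brackets) with an AAV-Cre-only region within 1 kb of a start site (red circles, bars for the 95% Wilson interval) and with a shared region (open blue diamonds, hidden where the circle coincides), with the 9.65% of all autosomal protein-coding genes as a dashed line. Keratins and neurotransmitter receptors lie to the right of the line at 34.7 and 27.8%, olfactory and vomeronasal receptors to the left at 1.84%, and Hox genes at 0% with a shared region at 100%.

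Axon guidance ligands and receptors had an AAV-Cre-only region at 17 of 68 genes (25%, interval 16.2 to 36.4%), led by Sema4c, a semaphorin gene, with a region of 3801 bp and a fold of 5.65 that lay 88411 bp from an AAV-GFP region. Epha6, an ephrin receptor gene, had a fold of 3.73 at a distance of 757507 bp. Collagens had one at 10 of 42 genes (23.8%, 13.5 to 38.5%). Col6a6 and Col6a5, which encode chains of type VI collagen and are neighbours on chromosome 9, had folds of 6.08 and 5.87, each over the start site. At Col1a2, which encodes a chain of type I collagen, the fold was 5.52, the region lay 367 bp from an AAV-GFP region and the gene had a shared region too. Cadherins and protocadherins had 16 of 97 genes (16.5%) and Gpr receptors 25 of 97 (25.8%), with Gpr3 at a fold of 5.07.

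Of 49 keratin genes, 17 (34.7%, interval 22.9 to 48.7%) had an AAV-Cre-only region, whereas 6 had a shared region. The keratin genes, which encode the intermediate filament proteins of epithelia, lie in clusters on chromosomes 11 and 15. The strongest of their regions were at Krt222 (fold 5.78), Krt87 (3.88), Krt9 (3.69) and Krt28 (3.43), all over the start site. Interleukins and their receptors had 13 of 77 genes (16.9%, 10.1 to 26.8%). Il33, which encodes an alarmin cytokine, had a region of 2766 bp with a fold of 4.21, and Il1r2, the decoy receptor of interleukin 1, had a fold of 3.82 and 160713 bp to an AAV-GFP region. Solute carriers, the largest class of transporters, had 43 of 372 genes (11.6%, 8.70 to 15.2%), with Slc36a2, Slc44a2 (fold 4.98), Slc7a4 (4.78) and Slc6a11 (4.47) the strongest.

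Counted over all of their genes, families of developmental transcription factors stood near or below the share of all genes. All 39 Hox genes had a shared region and 0 of 39 an AAV-Cre-only region, which allows a share of up to 7.69%. Of 115 other homeobox genes, 94 had a shared and 12 (10.4%, interval 6.07 to 17.4%) an AAV-Cre-only region, led by Msx2 with a fold of 5.04 over the start site. Sox and T-box genes had 4 of 33, forkhead genes 3 of 41, basic helix-loop-helix genes 4 of 67 and Klf, Sp and Egr genes 2 of 30. Among homeobox genes without a shared region, 5 of 21 (23.8%, interval 10.6 to 45.1%) had an AAV-Cre-only region, Msx2 among them. The share of all genes without a shared region was 8.47%. In the other families the counts were 1 of 8 for Sox and T-box genes (Sox12) and 1 of 19 for forkhead genes (Foxs1). They were 1 of 26 for basic helix-loop-helix genes (Neurod4) and 0 of 17 for Klf, Sp and Egr genes.

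Among signalling families, Notch and Hedgehog genes had an AAV-Cre-only region at 4 of 19 genes. Dll1, which encodes a Notch ligand, had a fold of 5.34, and Ihh, which encodes a Hedgehog ligand, had a fold of 5.49 over its start site with 8.26 CpG per 100 bases. Wnt ligands, receptors and antagonists had 7 of 54 genes, with Wnt8a at a fold of 4.91 and Wnt5a at 3.76. FGF ligands and receptors had 5 of 29, the TGF-beta, BMP and activin family 8 of 65 and the tumor necrosis factor family 6 of 33. The intervals of these 5 classes all included 9.65%. Among genes without a shared region, Wnt genes had 5 of 20 (25%, interval 11.2 to 46.9%). Notch and Hedgehog genes had 3 of 8 (37.5%, 13.7 to 69.4%). Both intervals lay above the 8.47% of all genes without a shared region. Those of the FGF (2 of 12), TGF-beta (3 of 29) and tumor necrosis factor (4 of 20) families included it. Nuclear receptors had 5 of 45 genes, with Nr4a1 at a fold of 5.08 and Nr2f2 at 4.25, both over the start site. Matrix proteases had 12 of 82, and integrins and claudins 5 of 48.

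None of the 48 genes listed as hepatocyte genes, among them those for albumin (Alb) and transthyretin (Ttr), had an AAV-Cre-only or a shared region within 1 kb of a start site, and 0 of 48 allows a share of up to 6.25%. Of 67 autophagy genes, 0 had an AAV-Cre-only region, which allows up to 4.48%, and 1 had a shared one. The 12 genes of autophagy and lipid degradation that the study followed, with Kdm6b itself among them, had neither kind (0 of 12, up to 25%). With a window of 5 kb, an AAV-Cre-only region was found at 5.97% of the autophagy genes and 16.7% of the 12 genes. The share of all genes was 22.8%. The paper reports that H3K27-me3 measured by ChIP-seq rose at nearly all of its listed autophagy genes when JMJD3 was downregulated. It also reports that ChIP assays at selected genes gave the same result. Its assignment of regions to genes used a window of 15 kb, wider than those here. Whether the level of the mark changed at these genes was not tested, since the lists hold no read counts. Cell cycle inhibitors and D-type cyclins had 0 of 10 (up to 30.0%), and 5 of them had a shared region. Cytochrome P450 genes had 10 of 100. Cyp26b1, a retinoic acid hydroxylase gene, had a fold of 4.56 at 122 bp from an AAV-GFP region, and Cyp2j13 a fold of 4.21. Several members of this family are near-identical copies, where reads may be split.

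Markers of other liver cell types were found among the genes with an AAV-Cre-only region. Bile duct markers had 5 of 10 genes (interval 23.7 to 76.3%), namely Muc1, Cftr, Sox9, Tspan8 and Krt7, and 5 of 10 had a shared region, Muc1 and Sox9 among them. At Cftr, the chloride channel gene, a region of 647 bp with a fold of 4.60 covered the start site, 340845 bp from an AAV-GFP region. Lymphocyte markers had 5 of 14 genes (16.3 to 61.2%), Cd3e and Lck among them, and 0 of 14 had a shared region. The regions were weak, with a fold of 3.04 at Cd3e and 2.95 at Lck. Stellate cell markers had 4 of 16 genes (10.2 to 49.5%), namely Col1a2, Rgs5, Acta2 and Reln, of which Rgs5 alone had no shared region. A shared region was found at 11 of the 16. Endothelial markers had an AAV-Cre-only region at 3 of 16 genes (Pecam1, Robo4 and Clec4g, 6.59 to 43.0%) and a shared region at 4. Kupffer and myeloid markers had 2 of 15 (C1qc and Adgre1, 3.74 to 37.9%) and 2. The intervals of the endothelial and of the Kupffer and myeloid markers included the 9.65% of all genes, and those of the other types lay above it. The part of the makeup of the tissue in these regions was not tested.

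Some large families held few regions. Olfactory and vomeronasal receptors had an AAV-Cre-only region at 26 of 1413 genes (1.84%, interval 1.26 to 2.68%) and a shared region at 5. Zinc-finger genes named Zfp had 16 of 383 (4.18%, 2.59 to 6.68%), led by Zfp941 with a fold of 5.34. Genes matched by the names of ribosomal proteins and proteasome subunits had 7 of 137 (5.11%), but 2 of these 7, Rps6ka2 and Rps6ka4, encode kinases that share the name, and 2 others, Rpl3l and Psmb11, encode tissue-restricted relatives. Polycomb and H3K27 demethylase genes had 3 of 27, Pcgf2 with a fold of 4.43 over its start site, Cbx2 with 2.64 and Rybp with 2.45. Taking the classes as a whole, 370 of 4069 genes (9.09%) in any class and 1630 of 16651 (9.79%) in none had an AAV-Cre-only region. The 4069 genes include the 1413 olfactory and vomeronasal receptor genes with their 1.84%, which lower the pooled share.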

How the data were processed

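The authors made the ChIP-seq libraries from mouse liver, with 2 H3K27-me3 and 2 input libraries for each virus and groups taken from the sample labels. Per the study's methods, reads were processed with the histone mode of the AQUAS pipeline, mapped to mm10 with BWA (0.7.13), filtered with SAMtools (1.2) and Picard (1.126), and called with MACS against pooled input, and peaks found in both replicates were kept. The 2 deposited lists hold 1 list per group. For each peak the deposited lists give a fold enrichment over input, a −log10 of the p-value and a −log10 of the q-value, as the authors' peak caller computed them. A deposited display score and the summit position were not used. Read depth is unknown. Broad domains called as narrow peaks are split into several regions.

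Start sites were those of protein-coding transcripts in the basic set of GENCODE M21 (GRCm38). A region was AAV-Cre-only when it shared less than 1 bp with the AAV-GFP list, and distances were measured from edge to edge. Regions were named after the gene with the nearest start site. Values were set side by side without a test, since there is 1 list per group and regions are not replicates. Shares have 95% Wilson intervals. For a count of 0, the share allowed is 3 divided by the number counted, which is lower than the upper Wilson limit. Overlaps, distances and CpG island calls were checked against direct searches on simulated data. Named are the 12 regions with the highest −log10 p, the 5 widest, the 5 most distant from AAV-GFP at a q-value of 0.01 or lower, 3 on each side of each limit and up to 4 genes by −log10 p in each of 39 classes. Items that this rule selects and that are not named are not reported here. Genes with the most regions, and other genes named to account for a small count, were singled out after their values were seen. The regions and the gene classes were chosen with earlier results of these data known. Alternatives covered q-value thresholds, equal list lengths, merging, the overlap rule, the window, the set of start sites and the X chromosome. Python 3.11, numpy 2.4, pandas 2.3, scipy 1.17 and matplotlib 3.10 were used.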

Additional observations from a re-analysis of the deposited data

How the results depend on the processing

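Properties of the AAV-Cre-only regions at start sites were recomputed under 13 alternatives: their number (2393), their genes (2000), the share that covered a start site (44.8%), the share of start sites in a CpG island (59.5%) and the median distance to AAV-GFP (16444 bp). With a q-value of 0.05 or lower in both lists, the covering share was 50.8%, the CpG island share 63.8% and the distance 40856 bp, and with 0.01 they were 55.4%, 67.6% and 58755 bp. With the 34586 top peaks of each list, 1499 regions remained, 51.4% covered a start site and 63.5% of start sites were in a CpG island. Merging of peaks up to 1 kb apart gave 1539 regions, 60.9%, 56.6% and 32354 bp, and merging up to 5 kb gave 1221 regions, 1236 genes, 69.2% covering and 47390 bp. When an AAV-GFP peak within 1 kb made a region shared, 48.55% covered a start site, 55.5% of start sites were in a CpG island and the distance was 25891.5 bp. When sharing needed 0.5 of the region to be covered, there were 4875 regions and 3926 genes, with 62.9%, 72.8% and a distance of 0 bp. A window of 0 bp gave 1072 regions, 1051 genes, 100% covering by construction, 53.7% in a CpG island and 24122 bp. A window of 500 bp gave 61.8%, 56.7% and 21252 bp, and one of 5 kb gave 7946 regions, 4720 genes, 13.5%, 69.3% and 3716.5 bp. With all protein-coding transcripts, 56.97% of start sites were in a CpG island. The other values moved by less than 1.5 times for counts and stayed within the 95% interval for shares and distances. The CpG island share thus stood above the 65.0% of all start sites in 3 alternatives, those with a q-value of 0.01, with 0.5 covered and with a window of 5 kb. The causes were not tested.

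The gene classes were recomputed under the same 13 alternatives, a step chosen after seeing the data. Neurotransmitter receptors, potassium channels, sodium and calcium channels, Gpr receptors, axon guidance genes, collagens, cadherins, keratins, interleukins, solute carriers, bile duct markers and lymphocyte markers had a share above that of all genes in each of the 13, and Hox, hepatocyte, autophagy, Zfp and olfactory genes a share below it. Other classes changed side, among them non-Hox homeobox factors, above it in 5 of 13, and Cytochrome P450 and TGF-beta family genes, each in 7 of 13. Basic helix-loop-helix genes were above it in 4 of 13. Their share was 14.9 and 17.9% with a q-value of 0.05 and 0.01, against 11.4% of all genes in each. Stellate cell markers fell below it when peaks up to 1 kb apart were merged (6.25 against 7.29%).

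No paired analysis was possible because each list pools both replicates of its group. For the same reason leaving out a replicate could not be run. The lists hold no read counts, so the AAV-GFP signal in a region without an AAV-GFP peak is unknown.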

Other observations

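The X chromosome was not part of the regions described. In its AAV-Cre list, 181 of 315 regions (57.5%, 95% Wilson interval 51.9 to 62.8%) overlapped no AAV-GFP region, against 75.9% on chromosomes 1 to 19. Of the 181, 55 lay within 1 kb of a start site, at 51 of 948 genes (5.38%, interval 4.12 to 7.004%). The strongest were at Syn1, which encodes the synaptic vesicle protein synapsin I, with a fold of 5.30 and a distance of 48474 bp to an AAV-GFP region, at Eras, which encodes a Ras-like GTPase of embryonic stem cells (fold 5.04, 4042 bp), and at Gabrq, which encodes a GABA receptor subunit (fold 5.17, 676609 bp). These genes were chosen after their values were seen, by the −log10 p of their regions.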
